A study of Mus musculus with 3 samples.

Results

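The genes described here encode 9 chemokine receptors of T cells, namely Ccr2, Ccr4, Ccr6, Ccr7, Ccr8, Ccr9, Cxcr3, Cxcr4 and Cxcr5. They were chosen by symbol, and all 9 were found among the 44788 gene symbols of the count table. RNA had been sequenced from T lymphocytes of the spleen of female BALB/c mice aged 6 to 8 weeks. The cells were captured from red-cell-depleted splenocytes with beads against CD90.2, a surface protein of mouse T cells, and cultured in medium with 2% fetal bovine serum. All 3 libraries come from cells exposed for 15 h to LZ-8, a protein of the fungus Ganoderma lucidum that stimulates T cells. With 1 group and no untreated library analysed here, the values are levels under LZ-8 and say nothing of what LZ-8 changed. Whether the replicates are separate mice or cultures is not stated, so p-values measure only the spread between these libraries, which may be technical.

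Chemokine receptors are membrane proteins that couple to inhibitory G proteins and steer cells along gradients of small secreted proteins, the chemokines. The set of receptors on a T cell decides which tissues it can enter. Naive T cells circulate through lymph nodes by means of CCR7, while activated and memory cells carry receptors for inflamed skin, gut, B cell follicles or other sites.

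The libraries held 12669690 to 19041670 counts. Levels are given as CPM, counts per 1000000 counts of the library, and the order of levels of different genes is given only as CPM per kilobase of annotated exon. The T cell label was checked with 10 T cell markers, all above 100 CPM, with a summed level of 4053 to 4205 CPM. The 9 B cell markers summed to 14.4 to 18.2 CPM, the 10 monocyte and macrophage markers to 12.3 to 15.1 CPM and the 10 dendritic cell markers to 23.8 to 28.1 CPM. The 10 natural killer cell markers summed to 19.7 to 22.8 CPM and the 10 neutrophil markers to 0.105 to 0.612 CPM. No read in any library came from Csf1r, Fcgr1 and C1qa (monocytes and macrophages), from Clec9a and Cd209a (dendritic cells), from Klra4, Klra8 and Klre1 (natural killer cells), or from Elane, Ltf, Camp, Retnlg, Cxcr2 and Csf3r (neutrophils). Other markers of these lists did have reads. Of the 10 natural killer cell markers 2 reached 1 CPM, Eomes at 17.5 ± 1.59 CPM and Klrd1 at 1.80 ± 0.171 CPM (SD, n = 3). Eomes thus made up most of that list's sum, and which cells it came from was not tested.

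All 9 receptor genes are annotated as protein coding in GENCODE vM21 (GRCm38), and 5 of them lie on chromosome 9. Ccr2 occupies 124101950 to 124113557, Ccr4 114490316 to 114504916, Ccr8 120092114 to 120094906, Ccr9 123678439 to 123784330 and Cxcr5 44511787 to 44561877 on that chromosome. Ccr7 lies on chromosome 11 at 99144196 to 99155077, Ccr6 on chromosome 17 at 8236043 to 8257141, Cxcr3 on chromosome X at 101731535 to 101734269 and Cxcr4 on chromosome 1 at 128588199 to 128592293. The annotated exons together span 1175 bases in Ccr8, 1978 in Ccr7 and 10260 in Ccr9.

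Promoter sequence, here the 250 bases before the start that RefSeq annotates (GRCm38.p6), was taken for 7 of the 9 genes, and Ccr7 and Cxcr5 had no entry. RefSeq's start need not be the outer end of the GENCODE span above, and in Ccr4 and Ccr9 it lies inside that span, downstream of the first GENCODE exon. It also lies inside the span in Ccr2, Ccr8, Cxcr3 and the downstream start of Ccr6. The 250 bases of Ccr2, at 124101933 to 124102182, are thus mostly within the annotated gene. Shown are the promoters of the 3 genes with the highest level per kilobase among those 7, since they differ in base composition. They are written 5′ to 3′ on the strand of the gene, with motif matches in capitals: Ccr4 at chr9:114496545-114496794 (minus strand), Ccr8 at chr9:120091883-120092132 (plus strand) and Cxcr4 at chr1:128592300-128592549 (minus strand).
Ccr4: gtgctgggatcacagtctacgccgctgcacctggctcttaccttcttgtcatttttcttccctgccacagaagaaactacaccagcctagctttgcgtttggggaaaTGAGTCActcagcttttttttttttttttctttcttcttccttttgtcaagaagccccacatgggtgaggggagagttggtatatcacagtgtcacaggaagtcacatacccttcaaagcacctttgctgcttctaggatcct
Ccr8: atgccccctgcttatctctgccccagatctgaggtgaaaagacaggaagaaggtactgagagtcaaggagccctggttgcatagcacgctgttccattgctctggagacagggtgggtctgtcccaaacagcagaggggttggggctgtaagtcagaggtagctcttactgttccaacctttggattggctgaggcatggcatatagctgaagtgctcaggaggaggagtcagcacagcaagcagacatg
Cxcr4: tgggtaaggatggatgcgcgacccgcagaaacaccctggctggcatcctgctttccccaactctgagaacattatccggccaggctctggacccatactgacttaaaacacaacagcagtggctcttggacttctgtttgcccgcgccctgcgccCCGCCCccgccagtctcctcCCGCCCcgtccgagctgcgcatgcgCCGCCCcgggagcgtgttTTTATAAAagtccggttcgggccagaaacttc

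The Cxcr4 promoter stood apart in CpG content. It held 19 CpG dinucleotides, and 17.9% of the 32851 promoters in the RefSeq table held more. Ccr4, Ccr9 and Cxcr3 had 3 each and Ccr2 and Ccr8 had 1 each, against a median of 6 over the whole table. Ccr6 has 2 annotated starts, with 1 and 7 CpG.

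Motifs were searched on both strands. In Cxcr4 the GC box GGGCGG matched 3 times, each on the opposite strand and beginning at positions -95, -75 and -50 from the start. The TATA box TATAAA matched 2 times there, once on each strand, at overlapping positions beginning at -32 and -30. In Ccr4 the AP-1-type motif TGANTCA matched once, at -143. The STAT-type motif TTCNNNGAA matched 2 times in the first promoter of Ccr6, at -157 and -120. The NF-kB-type motif of 10 letters, the ETS-type motif CCGGAAG and the forkhead-type motif GTAAACA had no match in the promoters of the 7 genes. Over all promoters in the table of the same length, TATAAA occurred in 12.4%, GGGCGG in 32.7%, TGANTCA in 6.75%, TTCNNNGAA in 7.02%, the NF-kB-type motif in 1.21%, CCGGAAG in 6.91% and GTAAACA in 3.17%. A match is a run of letters and was not tested for binding.

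Ccr7, the receptor for CCL19 and CCL21 that leads T cells into lymph nodes, dominated the receptor transcripts. It had 29441, 18794 and 22655 reads in replicates 1, 2 and 3, or 1546, 1483 and 1539 CPM. Replicate 2 was the lowest and the other libraries were close to each other. Per kilobase of exon the level was 770 ± 17.4 CPM (SD, n = 3), and of the 12311 tested genes with an exon length 53 were higher. Ccr7 took 91.4 ± 0.255% of the summed CPM per kilobase of the 9 genes (SD, n = 3). In reads alone its share was 90.5%, 90.7% and 90.3%, with exact binomial 95% intervals of 90.1 to 90.8%, 90.3 to 91.1% and 89.9 to 90.6%. Per kilobase it exceeded the sum of the other 8 genes 10.6 ± 0.344-fold. Dendritic cells also carry CCR7, and their 10 markers summed to 23.8, 27.6 and 28.1 CPM in replicates 1, 2 and 3. Ccl22, also listed as a ligand below, was at 12.2 ± 2.22 CPM and Zbtb46 at 9.49 ± 1.22 CPM (SD, n = 3). Together they made up most of that sum, and which cells they came from was not tested. Tcf4 was at 3.52 CPM, Batf3 at 0.373, Itgax at 0.371, Xcr1 at 0.289, Flt3 at 0.252 and Siglech at 0.0263 CPM. Clec9a and Cd209a were at 0. The part of dendritic cells in the Ccr7 level was not tested. In RNA from a mixed cell population, more cells of a type and more RNA per cell cannot be told apart, which holds for every level here.

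**Figure D1:**
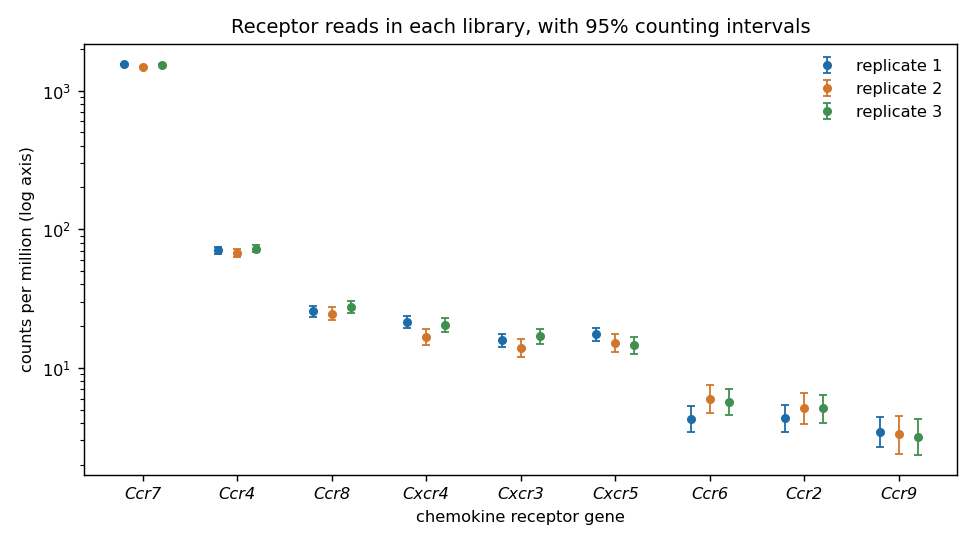
Level of each receptor gene in each library, as CPM on a log axis, with exact Poisson 95% intervals that cover counting error only. Genes are in the order of their level per kilobase of exon; Ccr7 lies between 1483 and 1546 CPM and Ccr9 between 3.19 and 3.47 CPM in the 3 libraries.

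Ccr4 and Ccr8, which are known from regulatory T cells and Th2 cells and, for CCR4, from skin homing, were next and had overlapping levels per kilobase of exon. CCR4 binds CCL17 and CCL22, and CCR8 binds CCL1. Ccr4 had 1338, 859 and 1064 reads, or 70.3, 67.8 and 72.3 CPM. Ccr8 had 488, 312 and 404 reads, or 25.6, 24.6 and 27.5 CPM. In both genes replicate 2 was the lowest and replicate 3 the highest. Per kilobase of exon Ccr4 stood at 22.7 ± 0.729 CPM and Ccr8 at 22.0 ± 1.22 CPM (SD, n = 3), with overlapping library values and a log2 ratio of 0.04 ± 0.04. The overlap depends on the length used: per kilobase of the longest transcript Ccr4 was at 24.999 ± 0.804 CPM and Ccr8 at 22.0 ± 1.22 CPM, and the library values were separate.

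Cxcr4 and Cxcr3 formed the next pair. CXCR4 binds CXCL12 and guides lymphocytes to bone marrow and within lymphoid tissue. Cxcr4 had 410, 213 and 302 reads, or 21.5, 16.8 and 20.5 CPM. Replicate 2 was the lowest, and its 95% counting interval (14.6 to 19.2 CPM) did not meet that of replicate 1 (19.5 to 23.7 CPM). CXCR3 binds CXCL9, CXCL10 and CXCL11 and is typical of Th1 cells and effector CD8 T cells. Cxcr3 had 301, 176 and 249 reads, or 15.8, 13.9 and 16.9 CPM, again lowest in replicate 2. Per kilobase Cxcr4 was at 10.9 ± 1.37 CPM and Cxcr3 at 8.98 ± 0.885 CPM (SD, n = 3), and the library values overlapped.

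Cxcr5 and Ccr6 are receptors that B cells share with T cell subsets. CXCR5 binds CXCL13 and takes follicular helper T cells into B cell follicles. Cxcr5 had 333, 192 and 214 reads, or 17.5, 15.2 and 14.5 CPM, highest in replicate 1. CCR6 binds CCL20 and is typical of Th17 cells. Ccr6 had 82, 76 and 84 reads, or 4.31, 5.999 and 5.71 CPM, lowest in replicate 1. Per kilobase Cxcr5 was at 4.72 ± 0.467 CPM and Ccr6 at 2.30 ± 0.390 CPM (SD, n = 3), without overlap. All 9 B cell markers had reads, with a summed level of 18.2, 14.4 and 15.2 CPM in replicates 1, 2 and 3 and Cd79a at 1.78 ± 0.102 CPM. The part of B cell RNA in the Cxcr5 and Ccr6 levels was not tested.

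Ccr2 and Ccr9 had the lowest levels per kilobase. CCR2, the receptor for CCL2, brings monocytes and effector T cells to inflamed tissue. Ccr2 had 83, 65 and 75 reads, or 4.36, 5.13 and 5.10 CPM. CCR9 binds CCL25 and directs cells to the small intestine and the thymus. Ccr9 had 66, 42 and 47 reads, or 3.47, 3.32 and 3.19 CPM. Per kilobase Ccr2 was at 0.719 ± 0.0645 CPM and Ccr9 at 0.324 ± 0.0133 CPM (SD, n = 3), without overlap. Of the 10 monocyte and macrophage markers 7 had reads, at a summed 12.3, 15.1 and 13.8 CPM in replicates 1, 2 and 3. Ly6c2, which T cells also express, was at 9.20 ± 1.75 CPM and Cd68 at 4.08 ± 0.406 CPM, while Csf1r, Fcgr1 and C1qa were at 0.

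Shared and overlapping sequence limits some of these values, since the sources used here do not give the use of strand or the rule for reads that map to several places. Ccr7, Ccr8 and Cxcr3 shared no 31-base word with transcripts of other genes. The shared portion was 0.111% of the words in Cxcr4, 0.905% in Ccr6, 0.963% in Ccr4, 2.42% in Cxcr5 and 3.48% in Ccr2. For Ccr9 it was 21.7%, most often with AC165425.1, an RNA on the opposite strand that overlaps 1932 bases of Ccr9 exon. Gm17200, a noncoding RNA on the same strand, overlaps 269 exon bases of Ccr9, and Slc6a20a on the opposite strand overlaps 22. The level of Ccr9 is therefore the least certain of the 9. Cxcr5 overlaps Bcl9l, a gene on the opposite strand at 45.8 ± 1.60 CPM (SD, n = 3), by 110 exon bases.

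The order per kilobase was Ccr7, Ccr4, Ccr8, Cxcr4, Cxcr3, Cxcr5, Ccr6, Ccr2, Ccr9. Of the 8 pairs of neighbours 6 had library values that did not overlap, and the exceptions were Ccr4 with Ccr8 and Cxcr4 with Cxcr3. The step from Ccr7 to Ccr4 was 34.0-fold (log2 ratio 5.09 ± 0.03), and the step from Ccr6 to Ccr2 was 3.18-fold (1.67 ± 0.13). Ccr8 to Cxcr4 (2.04-fold), Cxcr3 to Cxcr5 (1.90-fold), Cxcr5 to Ccr6 (2.07-fold) and Ccr2 to Ccr9 (2.21-fold) were smaller steps. With the length of the longest transcript in place of all exons, Ccr2 to Ccr9 was 1.32-fold, with Ccr9 at 0.640 CPM per kilobase, and Ccr4 and Ccr8 no longer overlapped. In each of the 8 pairs the higher gene was higher in 3 of 3 libraries. The order was set from the means of these same libraries, so that count adds no support to it. For Ccr4 and Ccr8 the log2 ratio in replicate 3 was only 0.00072. An exact two-sided sign-flip permutation test gave p = 0.25 for every pair, raw and adjusted over the 8. That is the smallest value 3 libraries allow, so the test could not decide any pair. Without length scaling Cxcr3 and Cxcr5 changed places.

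**Figure D2:**
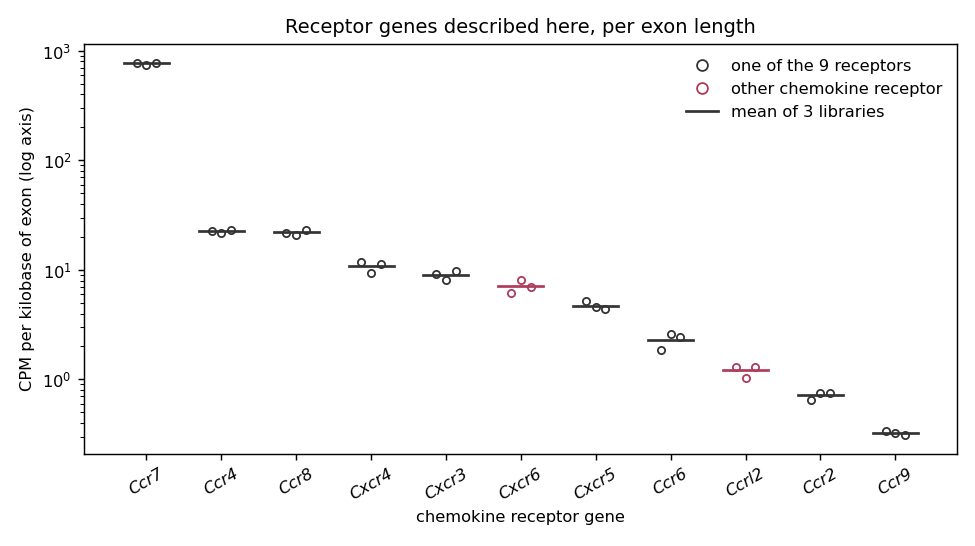
Receptor genes described here that reach 1 CPM, as CPM per kilobase of exon on a log axis, with a point for each library and a line at the mean of 3 libraries. Ccr7 is at 770 CPM per kilobase, the other 8 genes run from 22.7 (Ccr4) to 0.324 (Ccr9), and Cxcr6 and Ccrl2 lie among them.

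The libraries were then compared for variation beyond counting noise, with edgeR's likelihood-ratio test at a dispersion of 0 and Benjamini-Hochberg adjustment over all genes tested. All 9 receptor genes passed the expression filter, and 1 of them, Ccr7, was called as varying, against 13.7% of the 13500 genes tested, so the share among the receptors was not above that of all genes. The test compares these libraries, not conditions. The range of Ccr7 between libraries was 0.06 log2 units, with an adjusted p = 0.000251 in edgeR's test, and its coefficient of variation was 2.26%. The spread of its CPM, an SD of 34.5, was above the 10.1 that counting alone gives. The test calls abundant genes more readily: in bins chosen after the levels were known, 4.65% of genes of 1 to 10 CPM were called, 8.01% of 10 to 30 CPM, 14.3% of 30 to 100 CPM, 32.5% of 100 to 1000 CPM and 75.9% of 1000 to 2000 CPM. Without replicate 2 the range fell to 0.0025 log2 units with an edgeR adjusted p = 0.945, so the call rests on that library.

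The other 8 receptor genes were not called by edgeR. Cxcr4 came nearest, with a range of 0.35 log2 units, a coefficient of variation of 12.7% and adjusted p = 0.0647 in edgeR's test. With Ccr7 it made the 2 genes of the 9 at an unadjusted p under 0.05, against 3749 of the 13500 genes tested. Ccr6 had the widest range of the 9, 0.44 log2 units, at an edgeR adjusted p = 0.216. Its SD of 0.905 CPM compares with 0.589 CPM from counting alone. Ccr9 had an SD of 0.136 CPM against 0.471 CPM from counting, and Ccr2 0.436 against 0.565, so any real spread in those genes was not detectable at this depth. Ranges are on the log2(CPM + 0.5) scale, which understates those of low genes. The median range was 0.21 log2 units over the 9 genes and 0.16 over all genes tested. Replicate 2 held the lowest value of 5 of the 9 genes (Ccr4, Ccr7, Ccr8, Cxcr3 and Cxcr4) and the highest of 2 (Ccr2 and Ccr6). The same count was not made over all genes tested, so whether it is particular to the receptors was not tested.

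**Figure D3:**
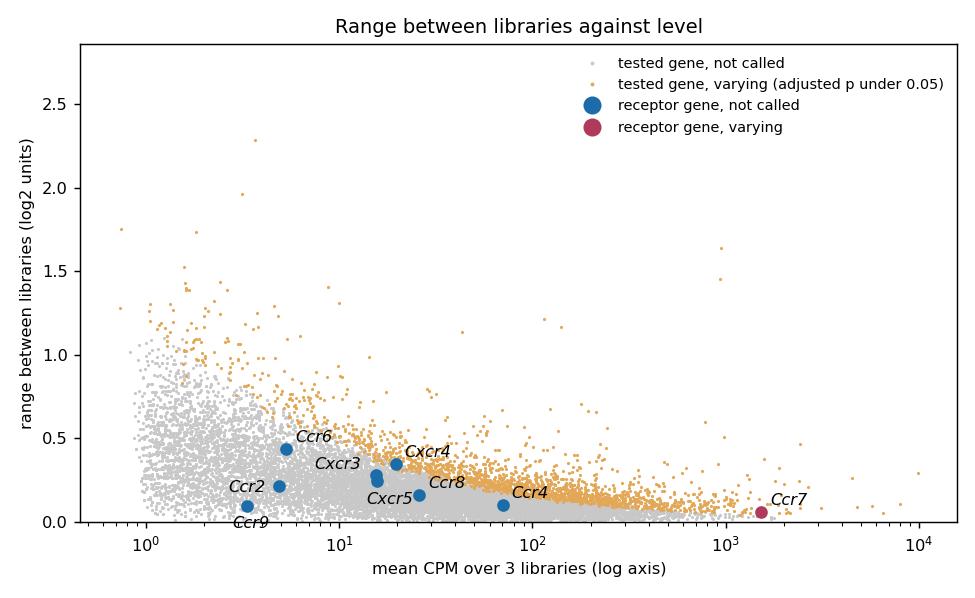
Range between libraries in log2 units against mean CPM on a log axis, for all 13500 tested genes and the 9 receptor genes. Ccr7 is the only receptor gene called as varying, at a range of 0.06 log2 units, and Cxcr4, not called, is at 0.35.

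Among 13 further chemokine receptors 2 reached 1 CPM and neither varied in edgeR's test, against 13.7% of all genes tested. Cxcr6, the receptor for CXCL16 on effector and tissue-resident T cells, had 228, 197 and 198 reads, or 12.0, 15.5 and 13.5 CPM. Per kilobase it stood at 7.07 CPM, between Cxcr3 and Cxcr5, and its highest library (8.05) met the lowest of Cxcr3 (8.03). Cxcr6 was the 1 gene of the 2 at an unadjusted p under 0.05, against 3749 of the 13500 genes tested. It had an edgeR adjusted p = 0.121, and replicate 2 was its highest library. Ccrl2, an atypical receptor, was at 3.15 ± 0.402 CPM (SD, n = 3). Cx3cr1, the fractalkine receptor of cytotoxic cells and monocytes, had 9, 13 and 8 reads, and Xcr1, of cross-presenting dendritic cells, 4, 4 and 5. Ccr1, Ccr3, Ccr10, Cxcr1, Ackr2 and Ackr3 had at most 5 reads in any library. Cxcr2, Ackr1 and Ackr4 had none, so levels of up to 0.158 CPM in replicate 1, 0.237 CPM in replicate 2 and 0.204 CPM in replicate 3 could have gone unseen.

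The ligands of the 9 receptors were mostly near 0, and 5 of 16 reached 1 CPM. Ccl22, a ligand of CCR4, was the highest per kilobase (5.25 CPM), with 202, 143 and 217 reads or 10.6, 11.3 and 14.7 CPM. Replicate 3 was above the others, and Ccl22 was the 1 of the 5 ligands tested that varied in edgeR's test (adjusted p = 0.0175), against 13.7% of all genes tested. Cxcl10, a ligand of CXCR3, was at 5.91 ± 0.757 CPM, Ccl25 (for CCR9) at 2.95 ± 0.617 CPM, Ccl20 (for CCR6) at 2.05 ± 0.637 CPM and Ccl1 (for CCR8) at 1.05 ± 0.198 CPM (SD, n = 3). Ccl20 stood at 2.78, 1.74 and 1.63 CPM in replicates 1, 2 and 3 and was not called (edgeR adjusted p = 0.169). Of the listed ligands of CCR7, Ccl19 had 1 read in all and Ccl21a had none. No other Ccl21 gene was looked up, and shared sequence was not checked for the ligands. The rule for reads that map to several places is not known, so the level of CCL21 transcripts is uncertain. Cxcl12, for CXCR4, had 1 read, and Cxcl13, for CXCR5, had 2, while Ccl2, Ccl7, Ccl8, Ccl12 and Ccl17 had none.

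Of 5 chemokines that act mainly on other receptors, Ccl4, Ccl3 and Xcl1 were above Ccl22 per kilobase of exon, at 65.5, 33.6 and 20.3 CPM, and Ccl5 (2.98) and Cxcl16 (0.324) were below it. Ccl4 stood at 43.2 ± 2.74 CPM of all counts and Ccl3 at 25.7 ± 1.96 CPM, both inflammatory chemokines that activated T cells secrete. Xcl1, the ligand of XCR1, was at 10.6 ± 0.469 CPM and Ccl5 at 2.86 ± 0.750 CPM (SD, n = 3). Cxcl16 was at 0.979 ± 0.251 CPM. None of these 5 chemokine genes varied in edgeR's test, against 13.7% of all genes tested. There was 1 at an unadjusted p under 0.05 in that test (Ccl4, adjusted p = 0.173), against 3749 of the 13500 genes tested.

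Signal relay genes behind the receptors were all present. All 17 were above 1 CPM and 10 above 100 CPM, with a median of 31.8 CPM per kilobase against 8.37 over all tested genes with an exon length. The highest per kilobase were the GTPase gene Rac2 (140 CPM), the inhibitory G protein subunit Gnai2 (104), the integrin-activating GTPase Rap1b (97.7), its effector Rassf5 (67.9) and the G protein subunit Gnb1 (65.1). Of the 17 genes, all tested, 4 varied in edgeR's test, against 13.7% of all genes tested and 32.5% of those of 100 to 1000 CPM. They were Gnb2, Dock2, Rac2 and Rassf5, with ranges of 0.16, 0.12, 0.11 and 0.12 log2 units. Dock2, the activator of Rac in lymphocyte migration, was highest in replicate 1, while Rac2 and Rassf5 were lowest there.

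Genes that damp chemokine signals were at mixed levels, with 12 of 14 above 1 CPM. The receptor kinases Adrbk1 (GRK2; 90.3 CPM per kilobase) and Grk6 (58.1) were followed by Rgs19 (52.0), Rgs10 (50.1) and Rgs16 (46.8), which speed the shut-off of G proteins. Rgs18 had 1 read in all and Adrbk2 (GRK3) 11, 4 and 3 reads. Of the 12 tested, 4 varied in edgeR's test, namely Rgs10, Rgs14, Rgs19 and the arrestin gene Arrb1, against 13.7% of all genes tested. That share rose with level. Arrb1, at 22.1 CPM, is among genes of 10 to 30 CPM, of which 8.01% were called. Rgs14, at 31.3 CPM, and Rgs10, at 85.8 CPM, are among those of 30 to 100 CPM, of which 14.3% were called. Rgs19, at 116 CPM, is among those of 100 to 1000 CPM, of which 32.5% were called. Rgs10 had the widest range of the 4 varying genes, 0.39 log2 units, at 97.2, 73.6 and 86.5 CPM (edgeR adjusted p = 2.37e-09).

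**Figure D4:**
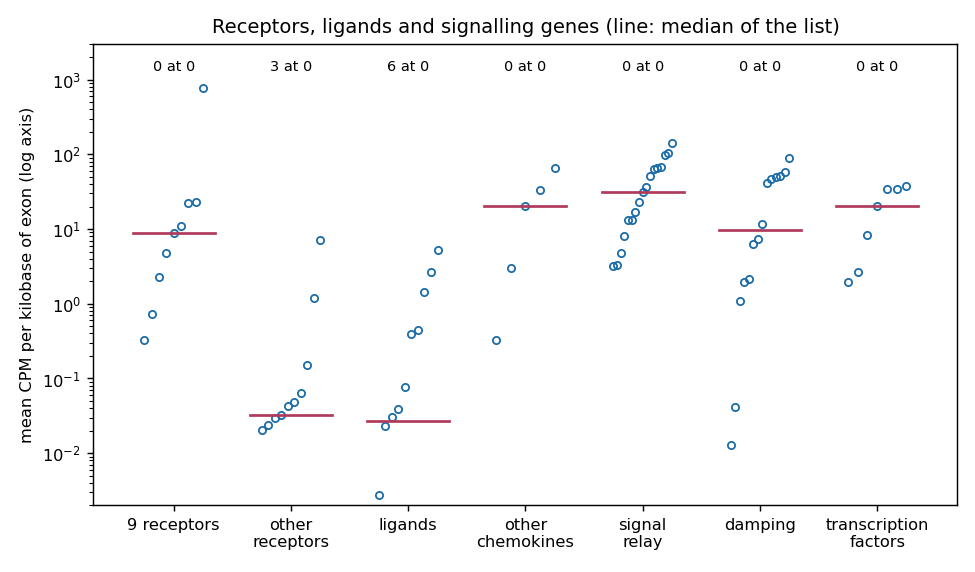
Mean CPM per kilobase of exon on a log axis for the receptor genes and 6 lists around them, with a point for each gene, a line at the median of each list and the number of genes without a read printed above. The signal relay list has a median of 31.8 CPM per kilobase, and the ligand list has 6 genes at 0.

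Transcription factors linked to these receptors are each set beside 1 of them here, per kilobase and as levels only. The pairing is not exclusive, since Ccr4 and Ccr8 are both known from Th2 cells and regulatory T cells. For Ccr7 (770 CPM), Klf2 was at 34.6 and Foxo1 at 20.3. Klf2 stood at 67.4, 54.4 and 69.9 CPM in replicates 1, 2 and 3 (edgeR adjusted p = 9.25e-06), lowest in replicate 2. Foxo1 stood at 167, 183 and 178 CPM (edgeR adjusted p = 0.0136), highest in replicate 2. For Cxcr3 (8.98), the Th1 regulator Tbx21 was at 34.1, and for Ccr4 (22.7), the Th2 regulator Gata3 was at 8.22. For Ccr8 (22.0), the regulatory T cell factor Foxp3 was at 37.2. For Ccr6 (2.30), the Th17 factor Rora was at 1.97, and for Cxcr5 (4.72), the follicular helper factor Bcl6 was at 2.64. With Foxp3, 3 of the 7 factors were called as varying between the libraries, against 13.7% of all genes tested. Foxo1 and Foxp3, at 176 and 170 CPM, are among genes of 100 to 1000 CPM, of which 32.5% were called. Klf2, at 63.9 CPM, is among those of 30 to 100 CPM, of which 14.3% were called.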

How the data were processed

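RNA-seq read counts of 3 libraries in 1 group were used. The authors deposited 1 table of raw counts per gene symbol with a column per library; its values are whole numbers with different column totals. The build mm10 is given per the submitters' processing notes. The sources used here do not give the aligner, counter, annotation or strand setting.

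CPM used the column totals. Exon lengths, positions and 31-base words shared on either strand came from GENCODE vM21 (GRCm38, which mm10 denotes), with a length for 31001 of 44788 symbols. Genes that reached 1 CPM in 2 or more libraries were tested between libraries with edgeR 4.0.16 (TMM factors, glmFit at dispersion 0, likelihood-ratio test with 2 degrees of freedom, Benjamini-Hochberg, threshold 0.05), because 1 group leaves no contrast to fit. Each pair of libraries differed at 742 to 1193 genes, so none was a copy of another library. On simulated counts for 13509 genes with some raised in 1 library, that test found 80 of the 100 genes raised 1.5-fold and 94 of the 100 raised 2-fold, and made 11 false calls. The simulated counts had Poisson noise only, with no other spread between libraries. The false calls are therefore not an error rate for the real libraries. Intervals and limits for a count of 0 (3 counts) cover counting error only.

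The receptors and lists were chosen with earlier results of these data known. Named were all listed receptors and transcription factors, chemokines of at least 1 CPM, and in the signalling lists the 5 highest per kilobase and those that varied; chemokines and signalling genes near 0 were named after their values were seen. Some listed genes are not reported here. No genes of like pattern were sought, since 1 group gives no pattern across conditions. Alternatives were DESeq2 1.42.0 size factors, unscaled totals, other filters and lengths, a denominator without mitochondrial genes and pseudogenes, and omission of each library in turn. Software was Python 3.11.15 (matplotlib 3.10.9, pandas 2.3.3, scipy 1.17.1, numpy 2.4.6) and R 4.3.3.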

Additional observations from a re-analysis of the deposited data

How the results depend on the processing

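No paired analysis was possible because there is only 1 group. The count of varying receptor genes stayed at 1 under DESeq2 size factors, unscaled totals and both other filters. With a library left out it was 0 to 1. The 0 came without replicate 2, where 1193 of the 13211 genes tested were called. Without replicate 1 there were 1120 called of 13211, and without replicate 3 there were 742 of 13216. At an unadjusted p under 0.05 in edgeR were 3 of the 9 genes without replicate 1 and 3 without replicate 3. Without replicate 2 there was 1, Cxcr5. The share of all genes at that unadjusted threshold was not computed for these settings, so nothing is read from these counts. The share of Ccr7 moved from 91.4% to 90.9% with the length of the longest transcript and to 90.5% without length scaling. The log2 ratio of Cxcr3 to Cxcr5 turned to -0.0176 without length scaling, which leaves out their unequal exon lengths. Between 5 and 8 of the 8 neighbouring pairs were separate under the other lengths and with a library left out. The other 7 ratios kept their sign under all 5 alternatives run, and 11 values over the 8 ratios moved by more than their SD, among them Ccr2 to Ccr9 at 0.40 with the longest transcript. Leaving mitochondrial genes and pseudogenes out made the totals smaller and raised every one of the 9 levels, 7 of them by more than their SD. Ccr7 rose from 1523 to 1715 CPM and Ccr2 from 4.86 to 5.48 CPM. Ccr6 (5.34 to 6.01 CPM) and Cxcr4 (19.6 to 22.1 CPM) rose by less than their SD. Ccr2, Ccr6 and Ccr9, with 42 to 84 reads a library, are limited by depth.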
